A study of Mus musculus with 18 samples.

Results

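The Snrpn and Ndn imprinted domain of mouse chromosome 7 corresponds to the human Prader-Willi and Angelman region, and 6 of its protein-coding genes were examined, namely Snrpn, Ndn, Magel2, Mkrn3, Peg12 and Ube3a. They were taken by name, as 6 of 21887 coding genes on the autosomes, X and Y, and each was measured over its gene model and 5 kb on either side. The data were lists of H3K4me3 peaks, histone H3 trimethylated at lysine 4, from Oct4-GFP+ prospermatogonia at E17.5, late in gestation, the arrested germ cells of the fetal testis. The mark was mapped by CUT&RUN, in which a tethered nuclease releases the DNA under an antibody, from 4000 nuclei per library. Wild-type cells (WT, Tet1+/+), knockout cells (KO, Tet1-/-) and cells homozygous for the HxD allele (HxD, Tet1HxD/HxD) gave 3 libraries each, and all 9 came from cryopreserved cells sorted with the same Oct4-GFP reporter and carried 1 batch label. TET1 is a dioxygenase that oxidises 5-methylcytosine, and HxD alters the iron-binding motif of its catalytic site. The submitters called the 3 libraries of a genotype biological replicates, and the labels used here did not say how many embryos each drew on.

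In somatic tissues the maternal copy of the Snrpn promoter is methylated, and Snrpn, Ndn, Magel2, Mkrn3 and Peg12 are expressed from the paternal copy. The Snrpn promoter region is the imprinting centre of the domain. Ube3a is the exception, since in neurons it is expressed from the maternal copy while a long antisense transcript from the Snrpn side runs across the paternal one. Germ cells erase these marks early, and the male germ line leaves the Snrpn promoter unmethylated. H3K4me3 marks active and poised promoters and keeps the de novo DNA methylation machinery away from the nucleosomes that carry it. The peak lists do not tell the parental copies apart, and fewer cells with the mark cannot be told apart from less of the mark per cell.

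On mm10, Ube3a occupied chr7:59228750-59310837 on the plus strand and Snrpn chr7:59982495-60450177 on the minus strand. Ndn (chr7:62348277-62349928, plus), Magel2 (chr7:62376979-62381640, plus), Mkrn3 (chr7:62417593-62420153, minus) and Peg12 (chr7:62461871-62464510, minus) followed as a tight cluster. With 5 kb at each end the domain spanned 3246 kb, of which 1888 kb lay between the windows of Snrpn and Ndn. The Snrpn gene model is 467683 bp long and has 4 listed starts. Its internal promoter was located from the peaks: of 31 merged peak regions inside the gene model, the one with the most covered bases over all 9 libraries was chr7:60002631-60006632. That region summed to 21690 covered bp, against 7117 bp for the next, and its centre lay 568 bp from the listed start at 60005199. Snurf, which shares this start and is read from the same transcripts, cannot be separated from Snrpn by peaks.

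All 9 libraries had a peak within 1 kb of the internal Snrpn start, and 0 of 9 had one within 1 kb of the starts at 60047978, 60140225 or 60450177. Promoter sequences from RefSeq (GRCm38.p6, the assembly of mm10) are shown for the occupied and for 1 unoccupied Snrpn start, for Ndn, whose sequence shares a motif with them, and for Mkrn3, whose peaks avoided the start base. Each runs 5′ to 3′ from 250 bases before the start to 50 after it. Capitals mark TGCCGC or its complement GCGGCA, the letters bound by the imprint-protecting zinc finger protein ZFP57, and the palindrome CGCATGCG, the core of the motif of the transcription factor NRF1, both searched on both strands.
Snrpn internal start, chr7:60005150-60005449, minus strand: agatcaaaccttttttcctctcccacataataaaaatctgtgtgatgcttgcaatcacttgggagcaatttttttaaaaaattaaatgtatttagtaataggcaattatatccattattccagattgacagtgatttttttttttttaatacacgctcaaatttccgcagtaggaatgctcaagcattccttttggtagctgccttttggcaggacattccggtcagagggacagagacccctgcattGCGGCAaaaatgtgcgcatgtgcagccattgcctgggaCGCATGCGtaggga
Snrpn upstream start, chr7:60140176-60140475, minus strand: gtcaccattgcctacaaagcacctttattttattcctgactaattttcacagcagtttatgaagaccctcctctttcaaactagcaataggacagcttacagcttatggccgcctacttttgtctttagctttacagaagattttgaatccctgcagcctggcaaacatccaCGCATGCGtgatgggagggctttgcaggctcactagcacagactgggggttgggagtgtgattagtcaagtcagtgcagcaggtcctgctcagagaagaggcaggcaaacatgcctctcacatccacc
Ndn, chr7:62348027-62348326, plus strand: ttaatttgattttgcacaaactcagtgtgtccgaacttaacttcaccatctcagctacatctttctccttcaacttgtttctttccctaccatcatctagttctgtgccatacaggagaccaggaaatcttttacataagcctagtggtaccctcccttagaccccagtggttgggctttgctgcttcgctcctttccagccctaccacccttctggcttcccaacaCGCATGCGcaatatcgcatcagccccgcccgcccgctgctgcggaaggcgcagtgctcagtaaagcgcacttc
Mkrn3, chr7:62420104-62420403, minus strand: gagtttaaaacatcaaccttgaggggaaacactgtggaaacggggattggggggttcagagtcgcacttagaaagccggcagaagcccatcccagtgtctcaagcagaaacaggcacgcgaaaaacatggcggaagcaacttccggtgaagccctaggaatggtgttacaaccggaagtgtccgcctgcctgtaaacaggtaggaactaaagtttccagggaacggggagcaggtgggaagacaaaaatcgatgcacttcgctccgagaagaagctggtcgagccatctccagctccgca

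The letters TGCCGC occurred in 14.1% of the 21263 coding promoters of this length. Among the 6 genes they were found at the internal Snrpn start, beginning 2 bases before it and running across it, and in none of the other 5 promoters. CGCATGCG, which was chosen after the sequences were read, occurred in 2.52% of promoters, and was present at all 4 Snrpn starts and at Ndn. The 3 upstream Snrpn starts were 85.0% to 88.7% identical to each other over 284 to 293 aligned bases, while the internal start was 63.0% to 68.8% identical to them over 192 to 200. No source used here states how reads matching more than 1 place were treated, so the lack of peaks at the upstream starts is a statement about the deposited lists. The internal Snrpn promoter held 7 CpG dinucleotides, Ndn 11, Magel2 10, Peg12 12, Mkrn3 15 and Ube3a 29, beside a median of 13 over coding promoters. Ube3a was thus the member with the most CpGs, and the 3 upstream Snrpn starts, with 4, 3 and 2, the poorest.

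The lists differed in size. WT libraries held 83586 to 128701 peaks covering 76.6 to 108.9 Mb. KO libraries held 69901 to 80232 peaks (50.5 to 73.0 Mb) and HxD libraries 49624 to 67925 peaks (45.6 to 69.3 Mb). WT replicate 3 had the longest list and HxD replicate 2 the shortest. Peak lists carry no read counts, so the depth behind a peak is unknown, and weaker signal cannot be told apart from fewer reads. Tet1 itself had 5159 to 7027 covered bp in WT. Its range was 3674 to 8023 bp in the KO libraries and 3743 to 6840 bp in the HxD libraries, and a peak over the gene does not check the genotype labels.

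All 6 genes had a peak in all 9 libraries, as did 73.1% of coding genes. The comparisons below use covered bp, the number of bases under peaks, and the KO and HxD comparisons share the same WT libraries. Differences come with the standard error of a limma fit over 18475 genes, and p-values were adjusted by Benjamini-Hochberg over all of them. In KO, 1.99% of these genes had fewer covered bp at an adjusted p under 0.05 and 0.103% had more. In HxD the shares were 2.92% and 0.0217%. The balance in KO turned with the scaling, from 368 genes narrower and 19 broader to 159 and 364 when all lists were cut to one length, and to 751 and 838 when each library was centred. In HxD, 540 and 4 became 37 and 20 with equal lists, and 572 and 425 when centred. Among the 6 genes the test was passed by 0 in KO and by 1 in HxD, Snrpn. At an unadjusted p under 0.05, 1 of the 6 was lower in KO, again Snrpn, beside 13.1% of genes. The median difference of the 6 genes was -344.5 bp in KO and -328.3 bp in HxD, beside -96.0 and -370.3 bp over all genes tested.

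Snrpn encodes SmN, a core protein of the spliceosomal particles of neurons. At its internal promoter, measured 5 kb to either side, covered bp were 2125, 1831 and 2976 in WT replicates 1 to 3, 2273, 2854 and 3720 in KO, and 2242, 1625 and 2044 in HxD. The 3 genotypes thus averaged 2311 ± 595, 2949 ± 728 and 1970 ± 315 bp (SD, n = 3 each), with KO and HxD each overlapping WT. KO differed from WT by 638 ± 428 bp (limma adjusted p = 0.507 over 17277 promoters) and HxD by -340 ± 428 bp (adjusted p = 0.816). Leaving out 1 library moved the KO difference from 253 bp, in the absence of KO replicate 3, to 976 bp, in the absence of KO replicate 1, and the HxD difference from -580 bp (WT replicate 2 left out) to -7.67 bp (WT replicate 3 left out). Every HxD library was below every KO library, as at 6.97% of promoters, and the difference of -979 ± 428 bp did not pass the test (limma, unadjusted p = 0.0386, adjusted p = 1.0). At the promoters of all coding genes, 0.11% were called lower in KO and 0.00579% higher, and 0 of 17277 were called in HxD, where 10.2% were lower and 1.65% higher at an unadjusted p under 0.05.

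The internal Snrpn peak lay mostly on the transcribed side. Covered bp downstream of the start were 2125, 1791 and 2568 in WT, 2215, 2374 and 2286 in KO, and 1556, 1414 and 2044 in HxD. Upstream they were 0, 39 and 407 in WT, 57, 479 and 1433 in KO, and 685, 210 and 0 in HxD. KO replicate 3, which reached 1433 bp upstream, had the highest fold enrichment over background of the 9 libraries at this promoter, 37.0 in the authors' values, while in WT replicate 2 the peak was split in 2. By the authors' -log10 q, the strongest peak at the Snrpn promoter exceeded 51.6% to 99.4% of the peaks of its own list (median 95.3%), the highest median of the 6 genes.

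**Figure D1:**
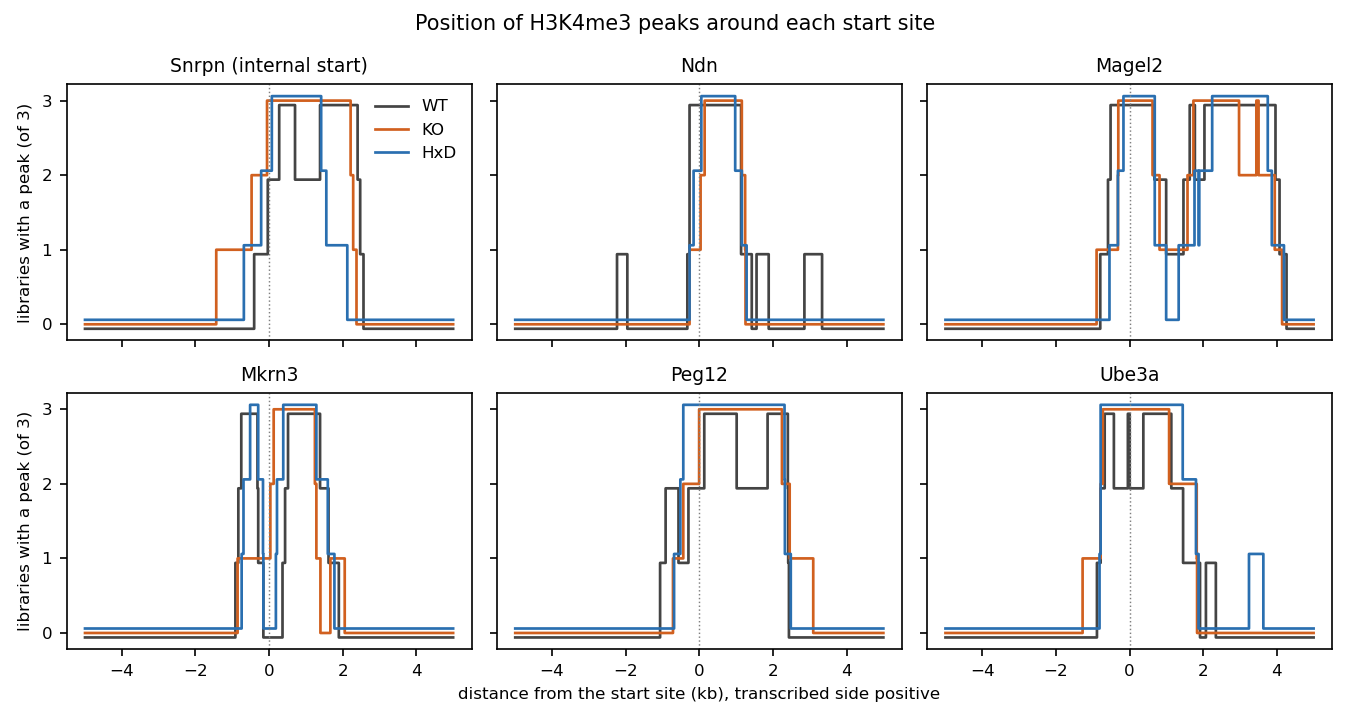
Number of libraries of each genotype (0 to 3) with a peak at each position from 5 kb before to 5 kb after the start of each gene, in kb with the transcribed side positive and the lines offset slightly. All 6 genes were covered in all 9 libraries within 1 kb of the start, and each had more covered bp on the transcribed side. Mkrn3 showed a gap at the start that KO replicate 3 bridged.

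Over the whole Snrpn window the picture differed. Covered bp were 12881, 13211 and 20344 in WT, 6192, 12369 and 8128 in KO, and 7828, 4047 and 5377 in HxD, so that each mutant group lay below WT without overlap, as 13.6% of genes did in KO and 20.3% in HxD. The difference was -6582 ± 2184 bp in KO (limma adjusted p = 0.128) and -9728 ± 2184 bp in HxD (adjusted p = 0.0296), and HxD minus KO, at -3146 ± 2184 bp, did not pass (adjusted p = 1.0). Snrpn thus fell in HxD by this test, and the KO difference did not reach the threshold. The HxD call was lost in 9 of 16 alternatives, whose adjusted p ranged from 0.000798 to 0.183, the highest without HxD replicate 2, while the KO difference passed only when each library was centred on its mean (0.0151). With lists of equal length the differences were smaller, at -3741 bp in KO and -4877 bp in HxD, and without WT replicate 3 the KO difference was -4150 bp.

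Without the promoter window, a split chosen after the values were seen, the rest of Snrpn held 10756, 11380 and 17368 bp in WT, 3919, 9515 and 4408 bp in KO, and 5586, 2422 and 3333 bp in HxD. Again no mutant library reached the lowest WT library. HxD differed from WT by -9388 ± 1795 bp (limma adjusted p = 0.0148, lost in 5 of 16 alternatives, 4.49e-05 to 0.126) and KO by -7221 ± 1795 bp (adjusted p = 0.0514, passing in 4 of 16, 0.000854 to 0.219). With lists of equal length these were -4783 and -4626 bp. The promoter window held 15.0 ± 1.36% of the Snrpn bases in WT, 35.2 ± 11.4% in KO and 35.6 ± 6.12% in HxD. The number of Snrpn peaks was 17, 19 and 27 in WT, 9, 12 and 8 in KO, and 9, 6 and 7 in HxD. Snhg14, the long noncoding host of the small nucleolar RNAs and of the Ube3a antisense transcript, overlaps most of this window, and peaks do not assign its bases to either gene.

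Ndn encodes necdin, a MAGE-family protein of postmitotic neurons. Its window held 1404, 1778 and 2459 covered bp in WT, 1123, 1523 and 1104 in KO, and 1422, 1127 and 1231 in HxD. Both mutant groups overlapped WT through its replicate 1. The differences were -630 ± 341 bp in KO (limma adjusted p = 0.358) and -620 ± 341 bp in HxD (adjusted p = 0.354). Both were smaller without WT replicate 3, at -341 and -331 bp, and with lists of equal length, at -269.7 and -259.7 bp. Centring gave -333 bp in KO and 34.4 bp in HxD. Bases upstream of the Ndn start numbered 380 ± 148 in WT, 87.7 ± 152 in KO and 138 ± 132 in HxD, and the start base itself was uncovered in KO replicates 1 and 3 and HxD replicate 3.

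Magel2, a MAGE-family partner of ubiquitin ligases in endosomal transport, carried 2 blocks of H3K4me3, one over its start and one over the gene body. The second began 1336 to 2038 bp into the gene in 8 libraries, and in KO replicate 1 and HxD replicate 3 it was itself split into 2 peaks. In KO replicate 3 a single peak ran from 305 bp before the start to 3509 bp after it. Covered bp were 4605, 3687 and 4211 in WT, 2869, 4090 and 3815 in KO, and 3528, 2974 and 3346 in HxD. All HxD libraries were below all WT libraries, as for 20.3% of genes, while KO overlapped WT. Neither difference passed the test, at -576 ± 551 bp in KO (limma adjusted p = 0.632) and -885 ± 551 bp in HxD (adjusted p = 0.426). The KO difference was -215 bp without KO replicate 1 and -358 bp without WT replicate 1, and centring gave -279 bp in KO and -230 bp in HxD.

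Mkrn3 encodes a RING-finger protein known as a brake on puberty. Its window held 1790, 1916 and 1624 covered bp in WT, 1739, 1159 and 2094 in KO, and 1603, 1964 and 1654 in HxD, with full overlap. The differences were -113 ± 356 bp in KO (limma adjusted p = 0.905) and -36.3 ± 356 bp in HxD (adjusted p = 0.975), and their sign depended on the processing. Mkrn3 stood apart in shape, because 8 of 9 libraries left its start base uncovered. WT and HxD libraries had a peak on each side of it, with 542 to 603 bp upstream in WT and 367 to 529 bp in HxD, while upstream KO bases were 0, 0 and 851. The start and the bases next to it in the sequence printed above lie in that gap.

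Peg12 is an intronless gene for a GSK3-binding protein that favours Wnt signalling. Its covered bp were 2274, 2483 and 3224 in WT, 2248, 2892 and 3810 in KO, and 3009, 2754 and 3016 in HxD. The 3 genotypes overlapped, with differences of 323 ± 507 bp in KO (limma adjusted p = 0.790) and 266 ± 507 bp in HxD (adjusted p = 0.838). Leaving out 1 library gave -90.3 bp (without KO replicate 3) to 691 bp (without KO replicate 1) in KO and 72.8 bp (without WT replicate 1) to 548 bp (without WT replicate 3) in HxD, and centring gave 621 and 921 bp. HxD libraries spread least, over 2754 to 3016 bp.

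Ube3a encodes the E6-AP ubiquitin ligase, whose loss from the maternal copy causes Angelman syndrome. Its covered bp were 2026, 1645 and 2704 in WT, 2550, 1862 and 3112 in KO, and 2978, 2226 and 2692 in HxD. The means were higher in both mutants, with overlap, by 383 ± 471 bp in KO (limma adjusted p = 0.721) and 507 ± 471 bp in HxD (adjusted p = 0.629). Its start base was covered in all 9 libraries. With lists of equal length the differences were 1021 bp in KO and 1145 bp in HxD, and with only peaks of -log10 q of 5 or more 628 and 9.67 bp. Leaving out 1 library gave 81.0 (without KO replicate 3) to 706 bp (without KO replicate 2) in KO and 267 (without WT replicate 2) to 797 bp (without WT replicate 3) in HxD, none past the test. Ube3a was also the gene whose peaks were weakest in single libraries. In HxD replicate 2 the authors' -log10 q was 4.38, so Ube3a had no peak of 5 or more there. In WT replicate 2 it was 7.35, below the 7.99 at which that list ends when lists are of equal length, so under each of these 2 settings 5 of the 6 genes kept a peak in all 9 libraries.

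**Figure D2:**
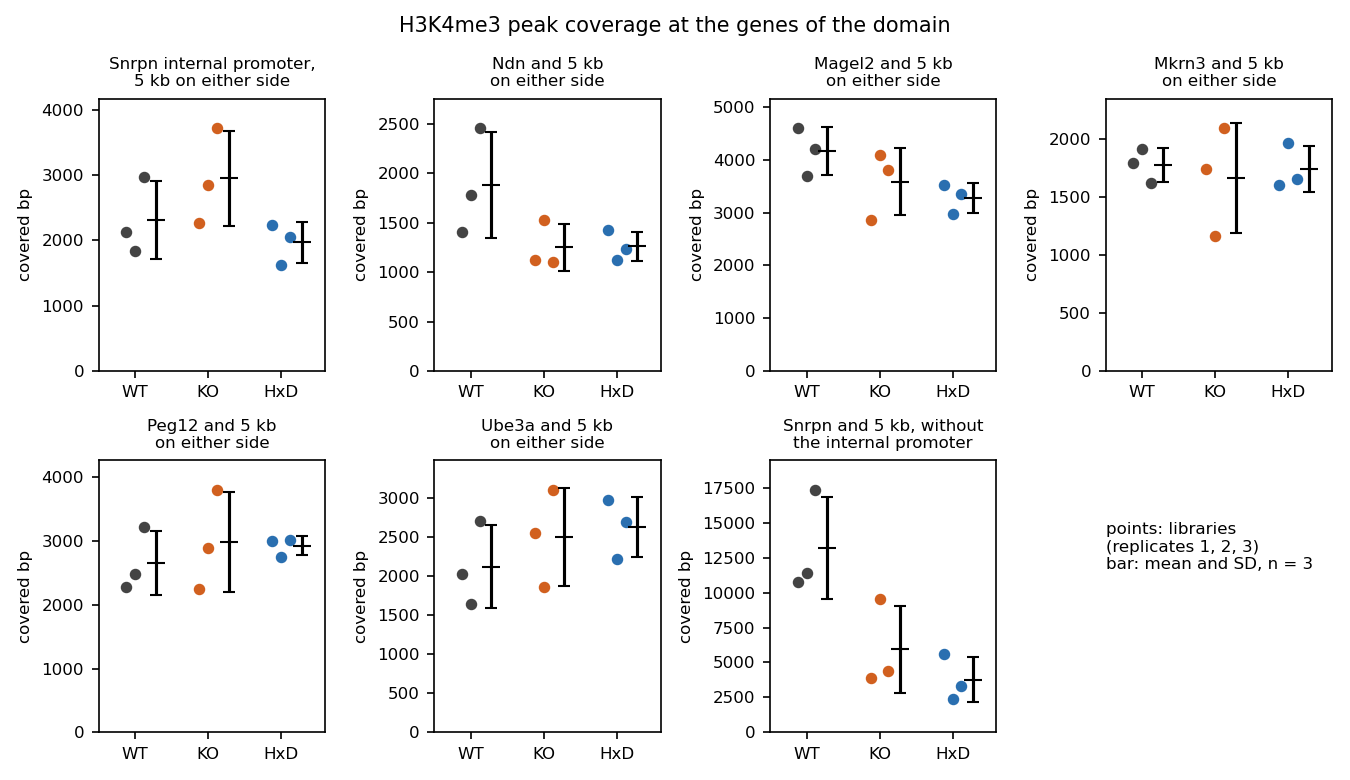
Covered bp per library (points, replicates 1 to 3 from left to right) with the mean and SD of each genotype, for the internal Snrpn promoter, for the other 5 genes with 5 kb on either side, and for the rest of the Snrpn window. The genotypes overlap in most panels, and the rest of Snrpn separates WT (10756 bp or more) from both mutants (9515 bp or less).

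Across the whole domain covered bp were 56662, 56513 and 88951 in WT, 27387, 42626 and 32148 in KO, and 29722, 18992 and 24259 in HxD. WT libraries did not overlap either mutant, while KO and HxD overlapped. KO reached 0.505 of the WT mean and HxD 0.361 (exact permutation p = 0.1 each, two-sided, the smallest that 3 against 3 allows). HxD held 0.714 of the KO mean (exact permutation p = 0.2), and an exact permutation F test over the 3 genotypes gave p = 0.00714. Without WT replicate 3 the ratios were 0.602 and 0.430. The whole lists were also shorter in the mutants, with a mean of 89.6 Mb covered in WT, 64.4 Mb in KO and 56.2 Mb in HxD. Taken as a share of all covered bp, the domain in KO reached 0.711 of the WT mean and in HxD 0.581 (exact permutation p = 0.1 each).

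**Figure D3:**
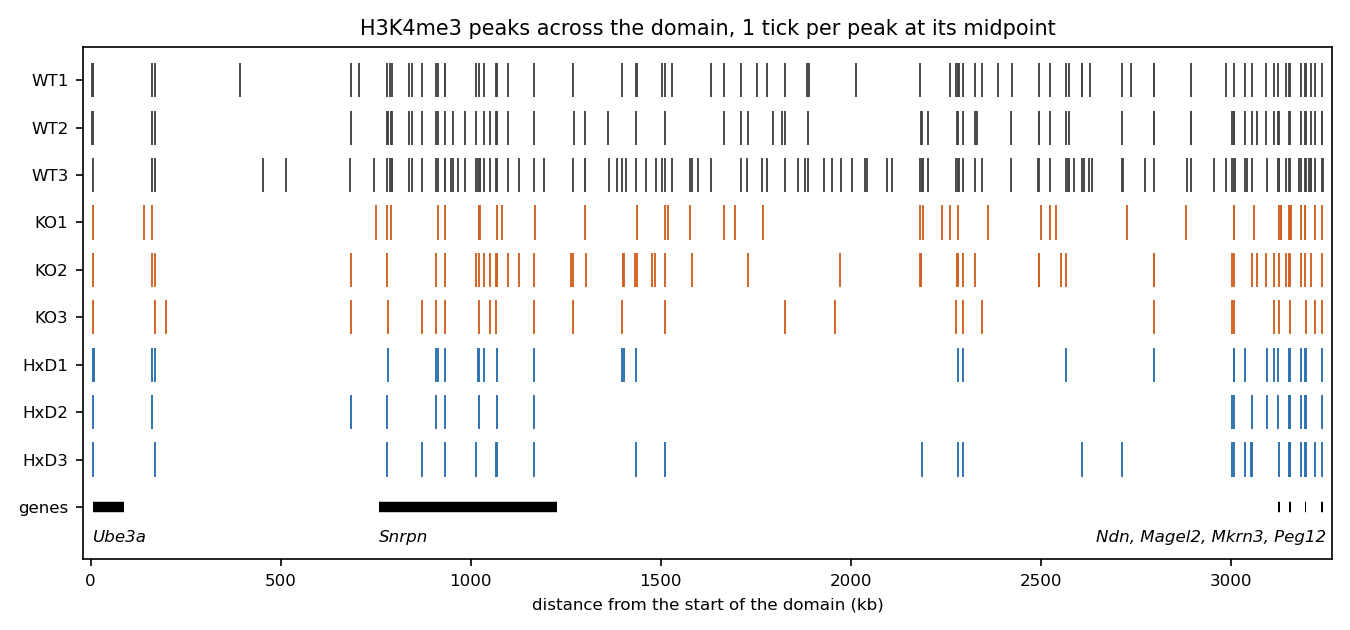
Each tick is 1 peak, placed at its midpoint in kb from the start of the domain, with 1 line per library and the gene models below. WT libraries have 74 to 120 peaks spread over the domain, while KO has 29 to 55 and HxD 20 to 32, and ticks remain in every library at the 6 genes.

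The difference lay away from the promoters. Within 5 kb of the 6 start sites, the internal one for Snrpn, the libraries held 14224, 13340 and 17198 bp in WT, 12802, 14380 and 17655 in KO, and 14782, 12670 and 13983 in HxD, with ratios to WT of 1.00 and 0.926 (exact permutation p = 1.0 and 0.5). Elsewhere in the domain they held 42438, 43173 and 71753 bp in WT, 14585, 28246 and 14493 in KO, and 14940, 6322 and 10276 in HxD, with ratios of 0.364 and 0.20 (exact permutation p = 0.1 each). This division, too, was chosen after the values were seen. The 6 promoter windows made up 22.7 ± 2.99% of the domain's covered bp in WT, 45.1 ± 10.7% in KO and 58.0 ± 8.50% in HxD. Genome-wide, all coding promoters made up 33.5%, 46.5% and 48.9%. The measures are not alike, because the domain figure leaves out other coding starts of the domain.

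Genome-wide, covered bases over 5 kb from coding gene starts were also fewer, at 0.578 of the WT mean in KO and 0.486 in HxD. The domain's covered bp outside its 6 promoter windows were set against that genome-wide total. This share was 0.0764%, 0.0879% and 0.0960% in WT, 0.0551%, 0.0678% and 0.0408% in KO, and 0.0393%, 0.0308% and 0.0358% in HxD. It counts bases near other coding starts of the domain, which the total leaves out. The 3 genotypes did not overlap in this share, with means of 0.0868 ± 0.00988%, 0.0545 ± 0.0135% and 0.0353 ± 0.00425%. The exact permutation test gave p = 0.1 for each pair and p = 0.00357 for F over all 3, each the smallest value possible. The share rests on the division chosen after the values were seen, so these p-values do not stand as a planned test. The 6 promoters held 0.0500%, 0.0504% and 0.0513% of all bases at coding promoters in WT, KO and HxD, a difference within the spread between replicates (exact permutation F test p = 0.914).

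**Figure D4:**
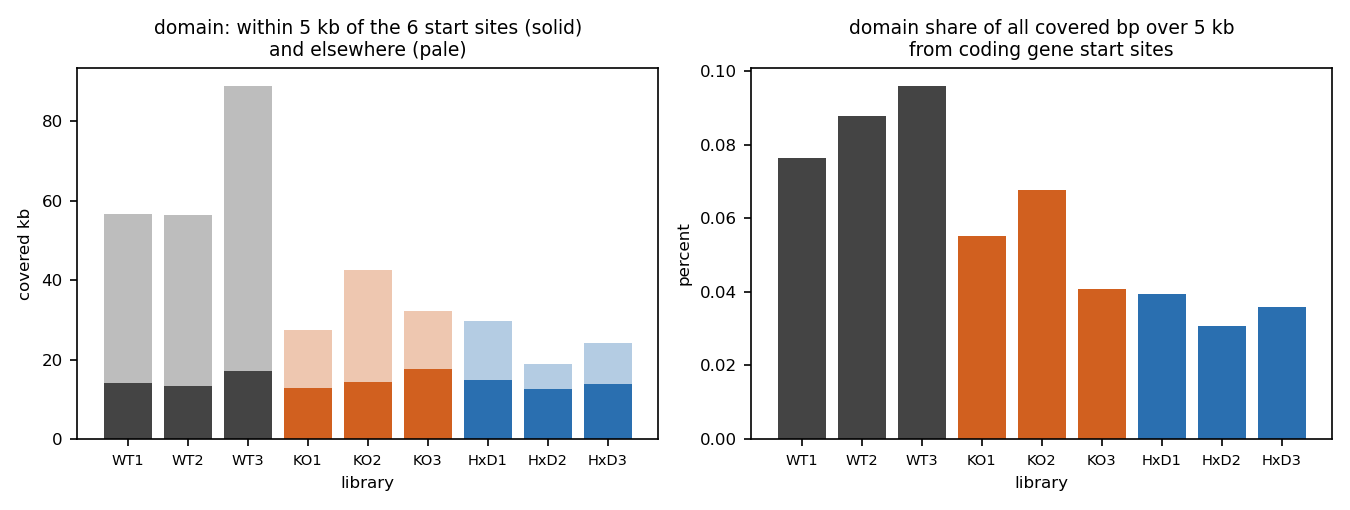
Left, covered kb of the domain per library, within 5 kb of the 6 start sites (solid) and elsewhere (pale). Right, the pale part as a percent of all covered bp lying over 5 kb from coding gene starts in the same library, with WT at 0.0764 to 0.0960, KO at 0.0408 to 0.0678 and HxD at 0.0308 to 0.0393.

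Most of the difference lay in the 1888 kb between Snrpn and Ndn, which also make up most of the 3246 kb of the domain. This interval held 26001, 27116 and 47187 covered bp in WT, 8488, 15221 and 8356 in KO, and 7333, 2386 and 5291 in HxD. The 3 genotypes did not overlap, and the ratios were 0.320 for KO and 0.150 for HxD against WT and 0.468 for HxD against KO (exact permutation p = 0.1 each). Genome-wide, the same ratios for bases over 5 kb from coding starts were 0.578, 0.486 and 0.841. The planned test was of the whole domain, and its intervals were not part of that plan. Between Ube3a and Snrpn, WT libraries had 2796, 2576 and 3086 bp, KO libraries 980, 2536 and 1365, and HxD libraries 1109, 1149 and 258, so that no mutant library reached the lowest WT library. From Ndn to Peg12 the ratios were nearer 1, at 0.764 and 0.747 (exact permutation p = 0.1 each).

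The peaks of all 9 libraries merged into 169 regions in the domain, of which 9 were present in every library. These 9 were 6 regions at the member promoters, 2 others in the Snrpn window (chr7:60154712-60156072 and chr7:60390382-60392021) and 1 between Snrpn and Ndn (chr7:62230396-62232907). Of 42 regions present in every WT library, 7 (16.7%) were in no KO library, beside 11% of such regions over the genome, and 12 (28.6%) were in no HxD library, beside 10.7%. Outside the coding promoter windows the shares were 19.4% and 33.3% of 36 regions, beside 14.5% and 14.1%. No test was made of these shares. The reverse, a region in every KO or every HxD library and in no WT library, occurred 0 times among 11 regions each, beside 0.617% and 0.189%.

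The longest of the regions shared by the WT libraries and missing from KO were in the interval from Snrpn to Ndn. The region chr7:60933892-60935612, within the RefSeq gene Gm29729, had 1177, 812 and 684 covered bp in WT, and chr7:61795861-61797515, within A230057D06Rik, had 328, 1086 and 1148. The region chr7:62117295-62118630, in no RefSeq gene, had 778, 1078 and 945 bp. All 3 were also without a peak in every HxD library. A further region, chr7:61548836-61550539, over Ube2nl and B230209E15Rik, had 1465, 1485 and 1480 bp in WT, 693 bp in KO replicate 2 alone among KO and none in HxD.

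Promoters of 18 other genes of the domain and its flanks were followed as a list, of which 13 could be tested, and 12 were left without Snurf, whose start is the internal Snrpn start itself. None of these 12 passed the limma test in any contrast, and against WT 1 (higher in KO) had an unadjusted p under 0.05. Their direction was lower for 7 and higher for 5 in KO, and lower for 8 and higher for 4 in HxD, with median differences of -147.3 and -231.3 bp beside 27.3 and -134.0 over all promoters. Of all promoters, 47.9% were lower in KO and 62.0% in HxD. At an unadjusted p under 0.05, 8.66% of all promoters were lower in KO and 6.41% higher, and in HxD 10.2% were lower and 1.65% higher. Snhg14 and Oca2, a pigment gene, had no covered bp in any library within 5 kb of the 1 position used for each, a listed start or a gene end. Klf13, a zinc finger factor gene beyond the domain, averaged 3388 ± 695 bp in WT, 4465 ± 281 in KO and 4289 ± 409 in HxD (limma adjusted p = 0.316 and 0.495). Of 28 genes at other maternally methylated imprinted regions, 27 were tested. Peg10 and Sgce had the same covered bp in every library, as did Zrsr1 and Commd1. Each of these pairs was counted once, which left 25. Peg3 and Usp29, whose values differed in KO replicate 3 alone, were both kept. Of the 25, 0 were called in limma, and at an unadjusted p under 0.05 they numbered 1 lower and 1 higher in KO and 2 lower in HxD. In direction, 10 were lower and 15 higher in KO (median 110.7 bp), and 19 were lower and 6 higher in HxD (median -308.3 bp), beside the 47.9% and 62.0% of all promoters that were lower. Zrsr1 and Commd1, with the same values, averaged 2136 ± 217 bp in WT and 3108 ± 570 in KO, a difference of 972 ± 359 bp (limma adjusted p = 0.225).

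Promoters of cell type markers were measured in the same way. For germ cell markers the mean covered bp per gene was 1261 to 1870 among WT libraries, 1787 to 2934 among KO and 1327 to 2231 among HxD, and 6 of 8 markers had a peak in all 9 libraries. Sertoli markers, all 8 present in every library, had 3247 to 3860 bp among WT, 2431 to 3336 among KO and 2101 to 3213 among HxD. Leydig and interstitial markers (1968 to 3149, 1384 to 2620 and 1938 to 2346), endothelial and blood markers (1051 to 1628, 619 to 1186 and 893 to 1073) and neuronal markers (1894 to 2098, 1122 to 1880 and 1282 to 1678) included Cyp17a1, Ptprc and Rbfox3, respectively, at 0 in all 9 libraries. Against WT, germ cell markers were higher for 7 of 8 in KO and 5 of 8 in HxD, with 3 and 2 of them at an unadjusted p under 0.05. Sertoli markers were lower for 7 of 8 in KO and 8 of 8 in HxD (1 and 2 at that p), and neuronal markers for 5 of 5 tested in both (2 and 2). Leydig and interstitial markers were lower for 4 of 5 and 3 of 5 (2 and 0), and endothelial and blood markers for 5 of 6 in both (2 and 1). No marker passed the adjusted limma test. At that unadjusted p, 6.41% of all promoters were higher and 8.66% lower in KO, and 1.65% higher and 10.2% lower in HxD. At any p, 47.9% of all promoters were lower in KO and 62.0% in HxD. The mark can also lie on silent promoters, so these values do not measure cell numbers, and their part in the lower covered bp between Snrpn and Ndn was not tested.

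Likeness of pattern was described over the 9 libraries as Pearson's r with no test. Among 13340 genes with a promoter peak in all libraries, Rasl11b (0.979), Alpl (0.976) and Meis3 (0.970) were most like the internal Snrpn promoter. Among 13341, Timm13 (0.970), Mxd3 (0.964) and Gm29776 (0.964) were most like Ndn. All points share the libraries and so their list lengths.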

How the data were processed

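The 9 deposited H3K4me3 peak lists, 1 per library, were used, and the other 9 of the 18 samples, IgG controls, were left out. The submitters' processing notes name mm10, the peak caller MACS2 2.1.0, the aligner Bowtie2 2.5.0, the trimmer Trim Galore, and deepTools 3.5.1, bedtools 2.27.1 and SAMtools 1.16.1. The order of these steps, their options and the control for the peak calls are not stated in any source used here. The lists deposited by the authors give for each peak a score, a ratio (fold enrichment over background), -log10 p, -log10 q and the summit offset, and hold no counts. Fold and -log10 q served to describe and filter peaks within a list.

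Gene models came from RefSeq GRCm38.p6, the assembly of mm10. Overlapping peaks of a library were merged (Python 3.11.15, pandas 2.3.3). Covered bp were counted per gene with 5 kb on either side, and within 5 kb of 1 start per gene. A listed start existed for 17492 of the 21887 coding genes (79.9%), and a gene end stood in for the others. Where several positions were possible, the one with the most peak bases was used. Promoter windows, and the split into bases near and far from starts, thus depend on these same peaks. Genes with a peak in at least 3 libraries were fitted in limma 3.58.1 (R 4.3.3, eBayes with trend, genotype only, all 9 libraries), with Benjamini-Hochberg adjustment over all genes and a threshold of 0.05; the fit was tested on simulated data. For domain totals, exact permutation tests were run two-sided, with 1680 arrangements for F. The lists differ in length, so covered bp were also compared under alternatives: peaks of -log10 q of 5 or more, lists of equal length (49624 peaks), centring, log2(bp + 500), no filter, a 2 kb flank, a replicate block and leaving out each library. The labels do not say that equal numbers share an animal or day, so no block was used in the reported values. Deviations of same-numbered libraries correlated at -0.245 to 0.0900 over 9 pairs, and those of differently numbered libraries at -0.118 to 0.188.

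All 6 genes and the internal Snrpn promoter are named. Also named are list examples, the 3 longest regions per direction and the 3 genes most like Snrpn and Ndn. The members and lists were chosen with earlier results of these data known.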

Additional observations from a re-analysis of the deposited data

How the results depend on the processing

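Of 301 alternative values for 19 results on the 6 genes, 272 kept their direction and their side of the threshold, 14 lost and 5 gained a call, and 10 changed sign. Some alternatives could not change a sign. Dropping the filter, adding the replicate block or leaving out a library of the genotype outside the comparison left the difference itself unchanged. These moved only its p-value, so the count of unchanged values overstates how far direction was tried. Sign changes, all of differences that did not pass the limma test, were KO minus WT for Mkrn3 (185 bp centred, 139.8 bp without KO replicate 2, and -327.7 to 139.8 bp over the libraries left out) and Peg12 (-90.3 bp without KO replicate 3, and -90.3 to 690.7 bp over the libraries left out), and HxD minus WT for Ndn (34.4 bp centred) and Mkrn3 (163 bp with -log10 q of 5 or more and with lists of equal length, 618 bp centred, 33.3 bp without WT replicate 2, 32.3 bp without HxD replicate 1, 6.83 bp without HxD replicate 3, and -148.2 to 33.3 bp over the libraries left out). The Snrpn call in HxD was lost with -log10 q of 5 or more (limma adjusted p = 0.0810), equal lists (0.0849, with the difference at -4877 bp), the log2 scale (0.0544), no filter (0.144), and without WT replicate 1 (0.0516), WT replicate 3 (0.0964), KO replicate 3 (0.0547), HxD replicate 2 (0.183) or HxD replicate 3 (0.114). Outside equal lists and the log2 scale, these differences ran from -11027 bp (without WT replicate 1) to -7295 bp (without WT replicate 3), beside -9728 bp as reported. The cause was not tested. For the other 5 genes the promoter window held the same covered bp as the gene window in all 9 libraries, so alternatives for the promoter window were run for Snrpn.

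Counts over all genes moved more. Narrower genes in KO numbered 368 as reported, 207 with -log10 q of 5 or more, 159 with equal lists, 751 centred, 34 on the log2 scale and 147 without a filter. Broader genes in KO numbered 19, and then 6, 364, 838, 2 and 5. Narrower genes in HxD numbered 540, and 346 with a 2 kb flank, 218 with -log10 q of 5 or more, 37 with equal lists, 157 on the log2 scale and 185 without a filter. Broader genes in HxD numbered 4, and 1 with -log10 q of 5 or more, 20 with equal lists, 425 centred and 2 without a filter. HxD minus KO gave 0 calls, with 666 lower and 28 higher at an unadjusted p under 0.05, and 2 narrower without a filter. With the replicate block, KO gave 304 narrower and 10 broader and HxD 471 and 2; Snrpn kept its call in HxD (adjusted p = 0.0373), and each number matched its own best in 5 of 18 comparisons, so the block rests on shared numbers only. Leaving out 1 library gave 48 to 531 narrower and 0 to 25 broader in KO, 34 to 858 and 0 to 5 in HxD, and 0 in HxD minus KO. The domain ratio then ran from 0.442 to 0.602 (KO to WT), 0.321 to 0.430 (HxD to WT) and 0.635 to 0.817 (HxD to KO); with equal lists it was 0.659, 0.566 and 0.858, and it stayed below 1 under each alternative run. Depth is unknown, and a missing peak is a call below the authors' threshold.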
